A study of Mus musculus with 868 samples.

Results

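Skeletal muscle of mice given an atypical antipsychotic was compared with skeletal muscle of mice given a bisphosphonate. The libraries compared are all 6 muscle libraries labelled Asenapine, Lurasidone or Olanzapine (2 each) and all 4 labelled Alendronate or Risedronate (2 each), 10 of the 868 libraries of the series and 10 of its 36 muscle libraries. The series holds gene counts from 24 tissues of C57BL/6N mice, made as 3′ mRNA libraries, and by its title it asks whether mouse organs can predict clinical outcomes. The labels give no dose, time, vehicle, sex, age or named muscle for these 5 drugs, and do not say whether the libraries of a drug came from different mice. P-values then measure the spread between libraries, which may be technical.

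The bisphosphonates are not an untreated control. No control library falls in the same library set, a grouping that earlier processing took from the expression values and not from labels. Every difference below is thus between drugs, and it cannot be told which side departed from untreated muscle. Asenapine, lurasidone and olanzapine block dopamine and serotonin receptors in the brain and are used against psychosis. Weight gain and disturbed glucose handling are known side effects of antipsychotics, above all of olanzapine, and muscle takes up much of the glucose that insulin clears from blood. Alendronate and risedronate bind to bone mineral and block a step of the mevalonate pathway in osteoclasts, the cells that resorb bone. Muscle also carries the receptor for glucocorticoids, the adrenal stress hormones, which induce genes of protein breakdown and metal binding there.

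Total counts ran from 662846 to 922854 in the 10 libraries (median 827186), and from 842862 to 9868600 in the other 26 muscle libraries. Levels are given as CPM, counts per 1e+06 counts on TMM-scaled library sizes. The summed level of 10 muscle fibre genes was 126036 to 166984 CPM in antipsychotic libraries and 136563 to 155942 CPM in bisphosphonate libraries. Of 27 receptor genes that antipsychotics are known to bind, 14 were at 0 in all 10 libraries, among them the dopamine receptor Drd2 and the serotonin receptor Htr2a, and none of the 27 passed the filter on low counts. Transcripts of acinar pancreas (13 digestive enzyme genes, a list added after the values were seen) summed to 418 and 534 CPM with Asenapine, against 559 and 501 CPM with Alendronate, and to 1.57 to 105 CPM in the other 6 libraries. The ribosomal RNA precursor Rn45s took 3.38 and 3.53% of counts with Asenapine and 6.21 to 8.97% in the other 8 libraries.

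Between the classes, 3 of 6052 genes differed, all higher with antipsychotics, Foxo4 and Cdkn1a among them. That is 0.0496% of the genes tested at an adjusted p under 0.05. In GENCODE M21 (mm10) the positions are Foxo4 (chrX:101254528-101260873, plus strand) and Cdkn1a (chr17:29090976-29100727, plus strand). At an unadjusted p under 0.05 there were 715 genes, or 11.8%. In this fit the differences between drugs of a class count as spread, so it favours what the drugs of a class share. A gene it calls need not differ with each drug. It takes every library as a replicate of its class, although libraries come in pairs of the same drug. Its p-values thus do not measure the spread over drugs. Levels of the classes did not overlap for 151 genes (2.5%), 72 with antipsychotics above (1.19%) and 79 with antipsychotics below (1.31%).

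Foxo4 is a forkhead transcription factor that insulin signalling keeps out of the nucleus. Its level was 66.3 and 73.2 CPM with Asenapine, 76.1 and 56.7 CPM with Lurasidone and 53.3 and 60.7 CPM with Olanzapine, against 30.1 and 19.996 CPM with Alendronate and 33.3 and 33.9 CPM with Risedronate. All 6 antipsychotic libraries lay above all 4 bisphosphonate libraries. The classes averaged 64.4 ± 9.08 CPM (SD, n = 6) and 29.3 ± 6.43 CPM (SD, n = 4), a log2 difference of 1.14 ± 0.18 (SE; edgeR, adjusted p = 0.0168). Scaled over all 36 muscle libraries, Foxo4 was at 50.5 to 74.9 CPM with antipsychotics, 19.3 to 32.9 CPM with bisphosphonates and 43.3 to 65.0 CPM in the other 26 libraries. The bisphosphonate libraries were thus the 4 lowest of the muscle table, although library sets differ and the level across them was not tested. Asenapine and Lurasidone passed alone for Foxo4 (log2 fold changes 1.24 and 1.20), and Olanzapine gave 0.97 ± 0.22 (adjusted p = 0.137).

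Cdkn1a encodes p21, an inhibitor of the cell cycle that p53 and glucocorticoids induce. Its level was 98.8 and 102 CPM with Asenapine, 81.3 and 86.8 CPM with Lurasidone and 59.6 and 73.9 CPM with Olanzapine, against 47.7 and 32.9 CPM with Alendronate and 51.8 and 28.0 CPM with Risedronate. All antipsychotic libraries lay above all bisphosphonate libraries, with Asenapine highest and Olanzapine lowest of the antipsychotics. The class difference was 1.08 ± 0.19 on the log2 scale (adjusted p = 0.0296). By drug the log2 fold change was 1.31 ± 0.20 with Asenapine (adjusted p = 0.000879), 1.07 ± 0.20 with Lurasidone (adjusted p = 0.0162) and 0.74 ± 0.22 with Olanzapine (adjusted p = 0.354). Neither gene passed a test among the antipsychotics (adjusted p = 0.73 for Foxo4 and 0.299 for Cdkn1a). That does not show them alike: for Cdkn1a the Asenapine minus Olanzapine difference was 0.57, with a 95% interval of 0.10 to 1.04.

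The class calls were thin. Without Asenapine, without Lurasidone or without Alendronate no gene passed, without Risedronate 2 did, Foxo4 and Cdkn1a not among them, and without Olanzapine 213 did (102 higher, 111 lower). Leaving out 1 library gave 0 genes (Lurasidone replicate 1 or Alendronate replicate 2) to 14 (Olanzapine replicate 2), and Foxo4 and Cdkn1a stayed higher with antipsychotics in every such fit. The call was lost in 2 of these 10 fits for Foxo4 (Lurasidone replicate 1 and Alendronate replicate 2) and in 6 for Cdkn1a, those without either Asenapine library, either Lurasidone library, Alendronate replicate 2 or Risedronate replicate 2.

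**Figure D1:**
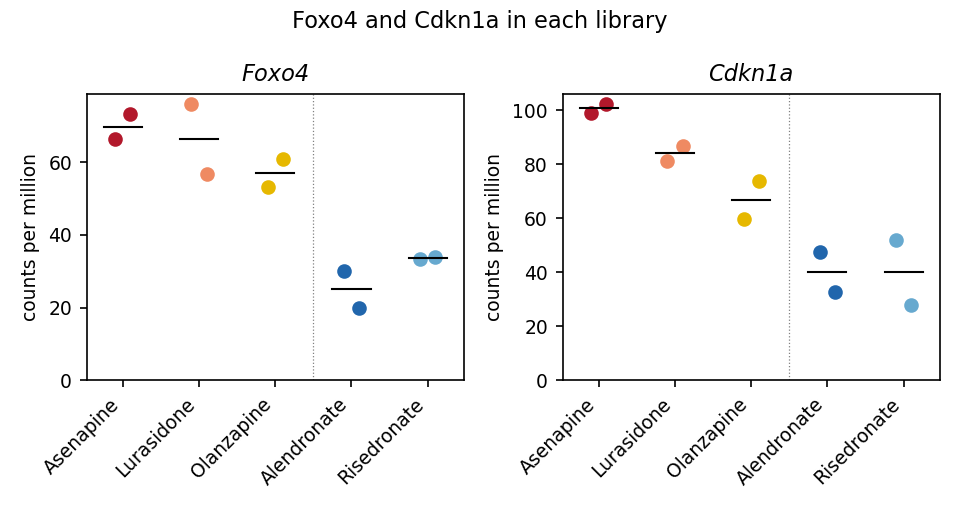
Level of Foxo4 and Cdkn1a in CPM (y axis, from 0) in each of the 10 libraries, by drug (x axis, antipsychotics left of the dotted line); points are libraries and bars are means of 2. The antipsychotic points lie above all bisphosphonate points in each panel, at 53.3 CPM or above for Foxo4 and 59.6 CPM or above for Cdkn1a.

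By drug, most of the difference lay with Asenapine. In a fit of 5 drug groups, 412 of 6770 genes (6.09%) differed between Asenapine and the mean of Alendronate and Risedronate, 215 higher (3.18%) and 197 lower (2.91%). With Lurasidone 84 genes (1.24%) differed, 50 higher (0.739%) and 34 lower (0.502%), and with Olanzapine 8 (0.118%), 4 in each direction (0.0591%). Asenapine alone carried 359 genes, Asenapine with Lurasidone 48, Lurasidone alone 32 and Olanzapine alone 2 (Pdk4 and Trim54). Asenapine with Olanzapine carried 2 genes, Des in the same direction and Actc1 in opposite directions, and Lurasidone with Olanzapine carried Nmrk2. All 3 drugs together carried 3 genes, among them the pancreatic genes Cela1 and 2210010C04Rik, higher with Asenapine and lower with Lurasidone and Olanzapine. The genes named in these counts were picked out after their values were seen, and the 3 contrasts share their 4 bisphosphonate libraries.

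A contrast of the mean of the 3 antipsychotics with the mean of the 2 bisphosphonates, in the same fit, called 101 genes (1.49%), 57 higher (0.842%) and 44 lower (0.65%). Of these, 88 were also called with Asenapine, 50 with Lurasidone and 4 with Olanzapine, and 7 with no single drug. Among the antipsychotics themselves 234 genes (3.46%) differed. Pair by pair, with p-values adjusted over all 3 pairs, 64 genes (0.945%) differed between Asenapine and Lurasidone, 240 (3.55%) between Asenapine and Olanzapine and 64 (0.945%) between Lurasidone and Olanzapine. Of the 412 genes called with Asenapine, 151 also differed among the antipsychotics.

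**Figure D2:**
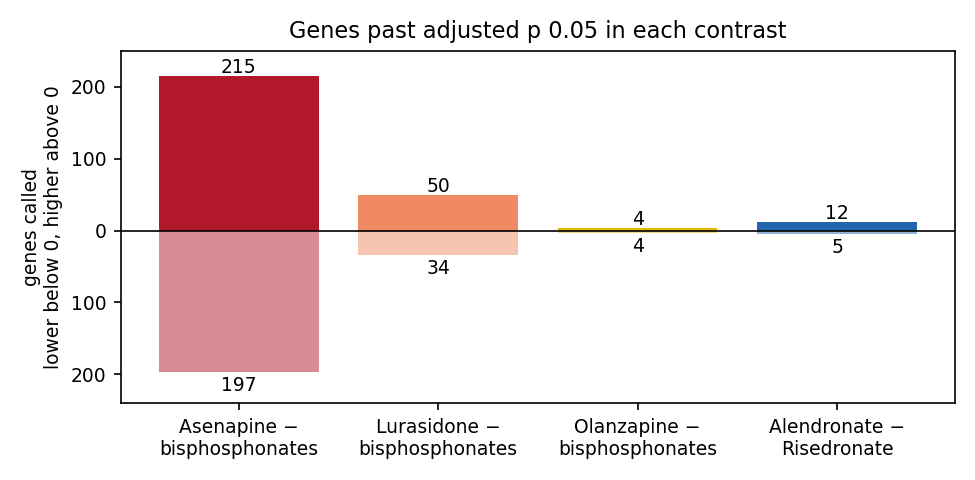
Number of genes past an adjusted p of 0.05 (y axis, higher above 0 and lower below 0) in each of 4 contrasts (x axis). Asenapine had 215 higher and 197 lower, Lurasidone 50 and 34, Olanzapine 4 and 4, and Alendronate against Risedronate 12 and 5.

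With Asenapine, the metallothionein genes Mt1 and Mt2 were among the 10 largest rises. Metallothioneins are small cysteine-rich proteins that hold zinc and copper. Mt2 was at 359.5 and 358 CPM with Asenapine, 38.6 and 80.1 CPM with Lurasidone and 47.0 and 64.7 CPM with Olanzapine, against 10.03 and 42.8 CPM with Alendronate and 62.9 and 56.1 CPM with Risedronate. The 2 Asenapine libraries stood apart from all 8 others, a log2 fold change of 3.19 ± 0.25 (adjusted p = 2.73e-07), while Lurasidone (0.60 ± 0.32, adjusted p = 0.395) and Olanzapine (0.53 ± 0.34, adjusted p = 0.722) did not pass. Mt1 was at 429 and 430.4 CPM with Asenapine, 89.6 and 106 CPM with Lurasidone and 65.8 and 55.4 CPM with Olanzapine, against 36.4 and 67.1 CPM with Alendronate and 75.2 and 61.9 CPM with Risedronate. Its log2 fold change with Asenapine was 2.85 ± 0.16 (adjusted p = 2.12e-09). Asenapine exceeded Lurasidone by 2.12 for Mt1 (95% interval 1.75 to 2.49) and Olanzapine by 2.82 (2.40 to 3.23).

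The promoters of both metallothionein genes are shown because these genes rose together and are the textbook case of a metal-inducible promoter. The windows are from RefSeq (GRCm38.p6), 250 bases before to 50 after the start, and capitals mark the core letters bound by the metal-responsive factor Mtf1, TGCACNC or TGCGCNC, on either strand. Of 32851 such windows, 12.6% hold TGCACNC and 15.4% hold TGCGCNC.
Mt1, chr8:94178839-94179138, plus strand: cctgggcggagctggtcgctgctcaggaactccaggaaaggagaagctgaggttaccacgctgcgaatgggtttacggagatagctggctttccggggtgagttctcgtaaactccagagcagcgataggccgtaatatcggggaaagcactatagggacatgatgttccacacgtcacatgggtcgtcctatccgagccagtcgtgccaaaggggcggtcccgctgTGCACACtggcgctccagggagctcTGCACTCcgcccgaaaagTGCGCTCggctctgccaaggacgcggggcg
Mt2, chr8:94172368-94172667, plus strand: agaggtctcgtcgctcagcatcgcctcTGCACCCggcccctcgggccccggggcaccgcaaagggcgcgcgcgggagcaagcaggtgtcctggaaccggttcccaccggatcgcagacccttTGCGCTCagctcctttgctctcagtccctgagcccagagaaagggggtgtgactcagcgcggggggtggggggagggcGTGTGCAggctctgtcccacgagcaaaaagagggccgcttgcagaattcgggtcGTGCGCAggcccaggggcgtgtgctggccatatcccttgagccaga
The Mt1 window holds 2 matches of TGCACNC and 1 of TGCGCNC, and the Mt2 window 2 of each. Sgk1, a kinase that glucocorticoids and insulin control, has 6 windows. Only 1 of them holds the palindrome of the glucocorticoid receptor (in capitals: AGAACA and TGTTCT, 3 bases apart), and it is shown for that reason. That palindrome was found in 3 of the 32851 windows (0.00913%).
Sgk1, chr10:21993640-21993939, plus strand: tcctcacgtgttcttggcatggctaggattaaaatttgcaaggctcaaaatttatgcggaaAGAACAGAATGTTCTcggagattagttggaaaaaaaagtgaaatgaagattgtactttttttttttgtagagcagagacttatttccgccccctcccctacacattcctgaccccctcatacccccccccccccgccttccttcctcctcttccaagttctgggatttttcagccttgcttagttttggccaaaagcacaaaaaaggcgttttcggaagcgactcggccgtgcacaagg
Of the 20 genes of the glucocorticoid-response list, 17 have a window in that table; 4 of the 17 hold TGCACNC, 9 hold TGCGCNC and Sgk1 alone holds the palindrome. A gene is counted when any of its windows matches, and some genes have several (Sgk1 6, Fam107a 3, Tsc22d3 3). The shares above are per window, so they are no measure for these counts per gene. All are matches of letters, and binding was not measured.

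Of the 20 glucocorticoid-response genes 19 passed the filter, and with Asenapine 12 of them rose and none fell. The share that rose was 63.2%, beside 3.18% of all genes tested, and the median log2 fold change was 0.97 beside 0.01 over all genes. With Lurasidone 1 of the 19 rose (Cdkn1a; 5.26%, beside 0.739%), with a median of 0.54, and with Olanzapine none, with a median of 0.13. Of the 19, 8 differed among the antipsychotics, beside 3.46% of all genes tested: Per1, Sgk1, Cebpd, Ddit4, Mt1, Mt2, Glul and Nfkbia.

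Ddit4, which restrains the growth kinase mTORC1, was at 505 and 343 CPM with Asenapine, 45.8 and 85.6 CPM with Lurasidone and 53.3 and 73.9 CPM with Olanzapine, against 21.3 and 58.6 CPM with Alendronate and 50.6 and 65.4 CPM with Risedronate. Its log2 fold change with Asenapine was 3.14 ± 0.24 (adjusted p = 2.73e-07), and Asenapine exceeded Lurasidone by 2.68 (95% interval 2.09 to 3.26). Cebpd, a transcription factor of the acute-phase response, was at 97.8 and 109 CPM with Asenapine, 36.5 and 45.6 CPM with Lurasidone and 20.4 and 31.7 CPM with Olanzapine, against 13.8 and 48.6 CPM with Alendronate and 23.4 and 29.2 CPM with Risedronate (log2 fold change with Asenapine 1.85 ± 0.27, adjusted p = 0.000582). For both genes the Asenapine libraries lay above all others.

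Sgk1 was at 227 and 152 CPM with Asenapine, 103 and 128 CPM with Lurasidone and 79.9 and 88.4 CPM with Olanzapine, against 118 and 87.1 CPM with Alendronate and 109.8 and 91.1 CPM with Risedronate. The Asenapine libraries were the highest, a log2 fold change of 0.90 ± 0.17 (adjusted p = 0.00475), and without Asenapine replicate 3 it was 0.57 (adjusted p = 0.152). Fkbp5, a co-chaperone of the glucocorticoid receptor, was at 80.4 and 105 CPM with Asenapine, 92.7 and 65.6 CPM with Lurasidone and 37.6 and 44.9 CPM with Olanzapine, against 38.9 and 71.4 CPM with Alendronate and 24.7 and 53.7 CPM with Risedronate. It passed with Asenapine (0.98 ± 0.25, adjusted p = 0.027) and not with Lurasidone (0.78 ± 0.25, adjusted p = 0.133). Glul, which makes glutamine, rose by 0.74 ± 0.11 and Nfkbia, the inhibitor of NF-kB, by 0.97 ± 0.19. Klf15 (1.54 ± 0.37), Arrdc2 (1.24 ± 0.24) and the clock gene Per1 (0.85 ± 0.24) complete the 12 together with Cdkn1a. Among the members that did not pass were Tsc22d3, a classical glucocorticoid target (0.26 ± 0.19, adjusted p = 0.447), and Dusp1, a phosphatase of stress kinases (0.47 ± 0.24, adjusted p = 0.276).

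All 12 stayed higher with Asenapine in each alternative that gave them a value, but without Asenapine replicate 3 only 6 passed. Without Asenapine replicate 4, and likewise with an offset for GC content and transcript length, 9 passed and Fkbp5, Per1 and Klf15 did not.

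**Figure D3:**
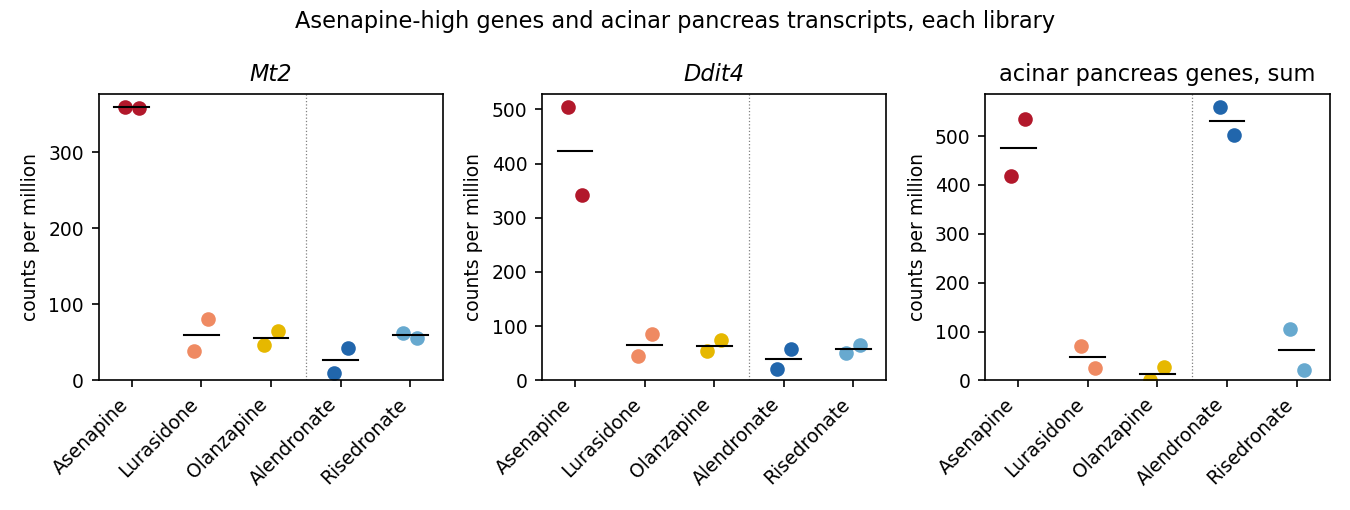
Level of Mt2 and Ddit4 and the summed level of 13 acinar pancreas genes in CPM (y axes, from 0) in each library, by drug (x axis, antipsychotics left of the dotted line); bars are means of 2. Mt2 and Ddit4 are high in the Asenapine libraries, and the pancreas sum is high with Asenapine and with Alendronate.

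**Figure D4:**
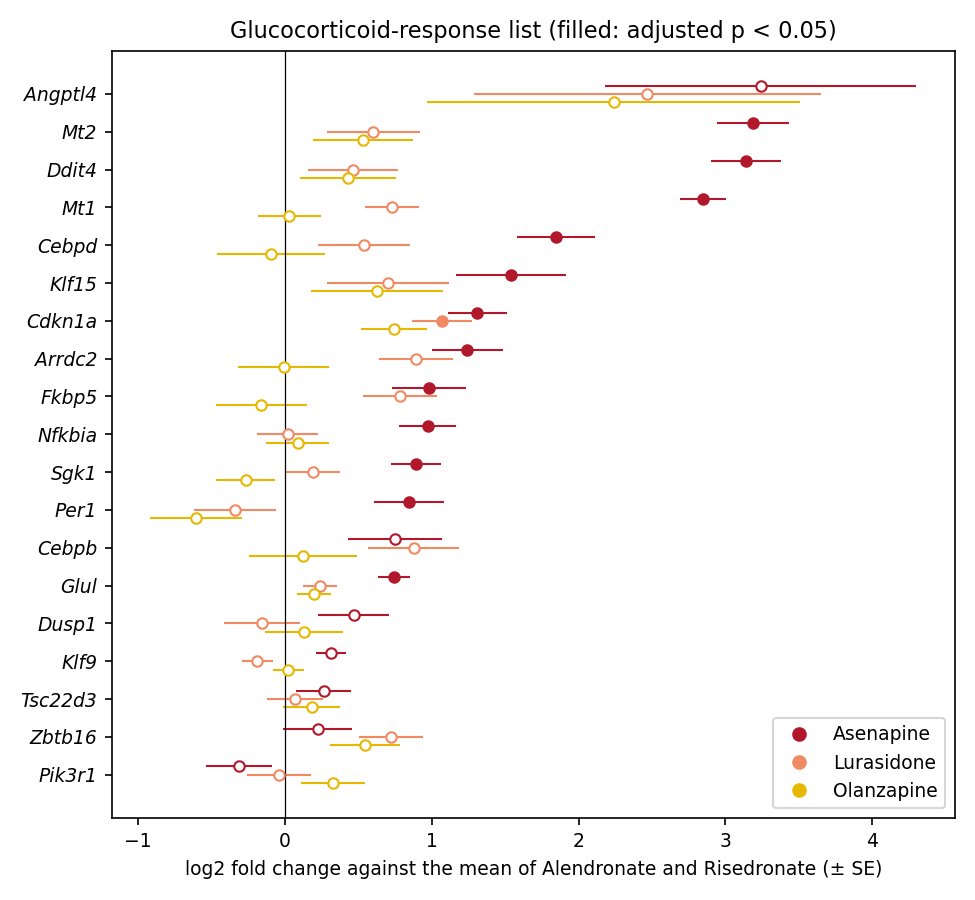
Log2 fold change of each antipsychotic against the mean of Alendronate and Risedronate (x axis, bars are SE) for the 19 glucocorticoid-response genes tested (y axis, ordered by Asenapine); filled points have an adjusted p under 0.05. Filled points are 12 for Asenapine, 1 for Lurasidone and 0 for Olanzapine.

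Of 18 tested muscle atrophy genes, 5 rose with Asenapine and none fell: Trim63, Map1lc3a, and also Klf15, Ddit4 and Cdkn1a, which the glucocorticoid list holds too. That is 27.8% higher, beside 3.18% of all genes tested. Trim63 encodes MuRF1, a ubiquitin ligase that marks myosin for breakdown. It was at 631 and 1253 CPM with Asenapine, 431 and 373 CPM with Lurasidone and 340.1 and 507 CPM with Olanzapine, against 273 and 244 CPM with Alendronate and 438 and 425 CPM with Risedronate. Both Asenapine libraries were above the other 8, and replicate 4 was far above replicate 3. The rise was 1.48 ± 0.18 (adjusted p = 0.000123), and without replicate 4 it was 0.90 (adjusted p = 0.0038). Map1lc3a, a protein of autophagosomes, rose by 0.73 ± 0.14, and was at 0.36 (adjusted p = 0.219) with the offset for GC content and length. Fbxo32, the other well-known ligase of wasting muscle, gave 0.46 ± 0.16 (adjusted p = 0.105). With Lurasidone 1 of the 18 rose (Cdkn1a; 5.56%, beside 0.739% of all genes tested), and with Olanzapine none.

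In the list of insulin action and glucose handling, 4 of 19 genes rose with Asenapine (21.1%, beside 3.18% of all genes tested) and 1 fell (5.26%, beside 2.91%). Pygm, muscle glycogen phosphorylase, which releases glucose from glycogen, was at 7279 and 6441 CPM with Asenapine, 6881 and 6190.5 CPM with Lurasidone and 5726 and 5336 CPM with Olanzapine, against 4344 and 3979 CPM with Alendronate and 5303 and 4519.9 CPM with Risedronate. The antipsychotic libraries all lay above the bisphosphonate ones. Pygm rose with Asenapine (0.59 ± 0.09, adjusted p = 0.000631) and with Lurasidone (0.54 ± 0.09, adjusted p = 0.00451), and gave 0.29 ± 0.09 with Olanzapine (adjusted p = 0.354).

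Txnip, which binds thioredoxin and restrains glucose uptake, was at 664 and 694 CPM with Asenapine, 764 and 659.5 CPM with Lurasidone and 517 and 519 CPM with Olanzapine, against 509 and 257 CPM with Alendronate and 291 and 382 CPM with Risedronate. The classes again did not overlap, by a narrow margin between Olanzapine and the higher Alendronate library. Txnip rose with Asenapine (0.90 ± 0.17, adjusted p = 0.00447) and Lurasidone (0.99 ± 0.17, adjusted p = 0.00736), and the class fit gave 0.84 ± 0.16 (adjusted p = 0.101). Ppp1r3c, which targets a phosphatase to glycogen, rose with Asenapine (1.03 ± 0.24), and Ppp1r3a, the main such subunit of muscle, fell (-0.76 ± 0.14; with the offset, -0.43 (adjusted p = 0.0944)). Hk2, the hexokinase of muscle, was at 519 and 947 CPM with Asenapine, against 387 to 472 CPM with the bisphosphonates (0.74 ± 0.15, adjusted p = 0.00785), and without Asenapine replicate 4 its change was 0.25 (adjusted p = 0.407). The glucose transporter Slc2a4 gave 0.32 ± 0.10 with Asenapine (adjusted p = 0.0695). Of the same 19 genes, 3 were higher with Lurasidone (15.8%, beside 0.739%), Pygm, Txnip and Gys1, which encodes glycogen synthase (0.45 ± 0.11, adjusted p = 0.049), and none with Olanzapine. Gys1 stayed higher with Lurasidone in all 16 alternatives (0.33 to 0.57), but only 4 kept its call. It was lost with DESeq2, with the offset and against either bisphosphonate alone.

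In the list of fatty acid oxidation, 4 of 24 genes rose with Asenapine (16.7%, beside 3.18%) and 1 fell (4.17%, near the 2.91% of all genes tested). Ucp3, a mitochondrial carrier of muscle, was at 112 and 91.5 CPM with Asenapine, 38.6 and 120.1 CPM with Lurasidone and 87.8 and 76.6 CPM with Olanzapine, against 22.6 and 11.4 CPM with Alendronate and 54.3 and 70.1 CPM with Risedronate. Alendronate was lowest, and Risedronate lay within the range of the antipsychotics. The log2 fold change with Asenapine was 1.62 ± 0.32 (adjusted p = 0.00608), and against Risedronate alone it was 0.69 (adjusted p = 0.279). Acadvl, which opens the oxidation of very long chains, rose by 0.56 ± 0.13, and Acadm, the enzyme for medium chains, changed by -0.45 ± 0.12, or -0.30 (adjusted p = 0.265) against Risedronate alone. In the sterol list 9 of 26 genes were tested; with Asenapine 1 rose and 1 fell (11.1% each, beside 3.18% and 2.91%), and the one that fell was Hmgcs1, an early enzyme of the mevalonate pathway (-0.72 ± 0.19, adjusted p = 0.0322). None of 13 tested genes of lipid synthesis, 22 of the extracellular matrix, 9 of prolactin and growth hormone signalling or 3 of the interferon response was called with any of the 3 drugs.

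Mitochondrial and contractile genes moved in small steps. Of 26 respiratory chain genes, 6 rose with Asenapine (23.1%, beside 3.18% of all genes tested) and 2 with Lurasidone (7.69%, beside 0.739%), and none fell. Sdhb, the iron-sulphur subunit of complex II, was at 944 and 1039 CPM with Asenapine, 1120.1 and 1009 CPM with Lurasidone and 958 and 841 CPM with Olanzapine, against 759 and 749.9 CPM with Alendronate and 671 and 648 CPM with Risedronate. All antipsychotic libraries were above all bisphosphonate libraries; Asenapine (0.48 ± 0.09, adjusted p = 0.0053) and Lurasidone (0.60 ± 0.09, adjusted p = 0.00303) passed, and Olanzapine (0.35 ± 0.09, adjusted p = 0.277) did not. With the offset for GC content and length the value for Asenapine was 0.31 (adjusted p = 0.078). Of 14 fast fibre genes 6 rose (42.9%, beside 3.18%) and 3 fell (21.4%, beside 2.91%) with Asenapine. Actn3, the fast alpha-actinin, changed by 0.47 ± 0.10 and Myh4, the myosin of the fastest fibres, by -0.29 ± 0.07, or -0.19 (adjusted p = 0.229) against Alendronate alone. Titin (Ttn, -0.56 ± 0.09) and nebulin (Neb, -0.32 ± 0.07), both giant proteins of the sarcomere with very long transcripts, were lower with Asenapine, while the alpha-actin Acta1 was higher (0.35 ± 0.08). With the offset the calls for Ttn, Neb, Acta1 and Actn3 were lost. Ttn was at -0.07 (adjusted p = 0.684), Neb at -0.03 (adjusted p = 0.867), Acta1 at 0.11 (adjusted p = 0.544) and Actn3 at 0.25 (adjusted p = 0.22). The call for Myh4 was kept with the offset. Of the 10 muscle fibre genes, 3 rose (30%, beside 3.18%) and 4 fell (40%, beside 2.91%) with Asenapine. Among them Tnnt3 (-0.52, adjusted p = 0.000898) and Cacna1s (0.70, adjusted p = 0.00114) kept their calls in all 14 alternatives, the offset included.

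Stress genes moved in both directions with Asenapine. Of 17 immediate early genes 2 rose (11.8%, beside 3.18%), the nuclear receptors Nr4a1 (1.5001 ± 0.18, adjusted p = 0.000116) and Nr4a3. Nr4a3 was at 11.9 and 90.2 CPM with Asenapine, against 2.51 to 27.1 CPM with the bisphosphonates (2.66 ± 0.69, adjusted p = 0.0274), and without Asenapine replicate 4 it gave 0.61 (adjusted p = 0.769), and against Risedronate alone 1.18 (adjusted p = 0.34). Of 19 heat shock and unfolded protein genes (10.5% in each direction, beside 3.18% higher and 2.91% lower), Herpud1 and Chac1 rose, and Dnaja1, a co-chaperone, and Hsp90b1, the chaperone of the endoplasmic reticulum, fell. Without Asenapine replicate 4 Chac1 was at 0.65 (adjusted p = 0.474). Dnaja1 was at 32.6 and 35.4 CPM with Asenapine, against 48.9 to 105 CPM with the bisphosphonates (-1.29 ± 0.28, adjusted p = 0.00908). Of 15 clock genes Per1 and Tef rose (13.3%, beside 3.18%) and Bhlhe41 fell (6.67%, beside 2.91%) with Asenapine, and Nfil3 rose with Lurasidone (6.67%, beside 0.739%). Against Alendronate alone Tef was at 0.30 (adjusted p = 0.234).

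Outside these lists, Odf3l2 was at 68.4 and 58.5 CPM with Asenapine, against 2.51 to 14.3 CPM with the bisphosphonates (3.16 ± 0.36, adjusted p = 4.02e-05). Sox4, a developmental transcription factor, was at 60.8 and 30.5 CPM with Asenapine, 2.08 and 4.45 CPM with Lurasidone and 4.70 and 6.60 CPM with Olanzapine, against 8.78 and 9.998 CPM with Alendronate and 7.40 and 8.18 CPM with Risedronate (2.40 ± 0.35, adjusted p = 0.000582). For both genes the Asenapine libraries stood above all others. Sox4 was at most 9.998 CPM in every other library and passed the filter on low counts only through Asenapine. Its place above the others therefore adds no support. Zfp36, which destabilises messages of inflammation, rose by 1.99 ± 0.47, and was at 1.29 (adjusted p = 0.172) against Risedronate alone. Among the largest falls were Ipo7, a nuclear import receptor (-2.01 ± 0.43), the phosphatase Cdc14a (-1.81 ± 0.35) and Casp8ap2 (-1.51 ± 0.36). Ipo7 was at 4.34 and 6.10 CPM with Asenapine, against 18.7 to 24.7 CPM with the bisphosphonates. Kdr, the endothelial VEGF receptor, was at 13.0 and 21.9 CPM with Asenapine, against 27.1 to 56.1 CPM with the bisphosphonates (-1.26 ± 0.31). It was the only 1 of 6 tested endothelial markers called (16.7%, beside 2.91% of all genes lower), and the median log2 fold change of the 6 was 0.02. The call for Kdr was lost in 5 of 13 alternatives, among them Alendronate alone as reference. In whole muscle, fewer cells of a type and less RNA per cell cannot be told apart.

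Transcripts of another tissue and the GC content of genes moved with these calls. Of 12 tested acinar pancreas genes 8 rose with Asenapine (66.7%, with a median log2 fold change of 1.56, beside 3.18% of all genes tested), and Cel (2.74 ± 0.52), Try4 (2.64 ± 0.54) and Ctrb1 (2.05 ± 0.34) were among its 10 largest rises. Against Alendronate alone none of these 3 passed: Cel was at 0.37 (adjusted p = 0.686), Try4 at 0.19 (adjusted p = 0.861) and Ctrb1 at 0.24 (adjusted p = 0.738). The part of these transcripts in the other differences was not tested. The median log2 fold change with Asenapine went with the GC content of the transcript, at -0.19 in the lowest quartile and 0.24 in the highest (Spearman correlation 0.38 across 6564 genes, which are not independent). With Lurasidone the quartile medians were -0.13 and 0.19 (correlation 0.30), and with Olanzapine the correlation was -0.03. Genes higher with Asenapine had a median GC content of 54.8% and genes lower 44.5%, beside 49.0% over all. With the offset that removes this trend and that of length, 177 genes were called with Asenapine, 31 with Lurasidone and 8 with Olanzapine, and 147, 29 and 8 of these had been called with the same sign without it.

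**Figure D5:**
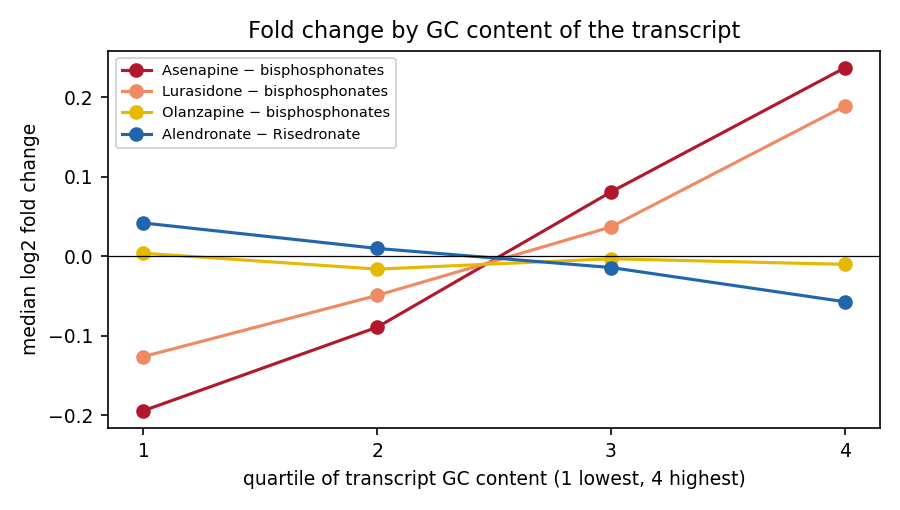
Median log2 fold change (y axis) of genes in 4 quartiles of transcript GC content (x axis, 1 lowest) for each antipsychotic against the bisphosphonates and for Alendronate against Risedronate. The Asenapine line climbs by quartile between -0.19 and 0.24 and the Lurasidone line between -0.13 and 0.19.

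The Asenapine count also rests on few libraries. Without its replicate 3 it was 134, without its replicate 4 it was 80, without 1 Risedronate library 227 (replicate 1) or 255 (replicate 2), and without 1 Alendronate library 282 or 351. Against Alendronate alone 264 genes were called and against Risedronate alone 226; 110 of the 412 passed against both, and 407 of the 412 had the same sign against both.

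With Lurasidone 50 genes were higher and 34 lower, among the higher Foxo4, Cdkn1a, Txnip, Pygm and Sdhb as above. Gpx3, a secreted peroxidase that clears hydrogen peroxide, was at 242 and 256 CPM with Asenapine, 319.9 and 175 CPM with Lurasidone and 127 and 145 CPM with Olanzapine, against 138 and 134 CPM with Alendronate and 116 and 103 CPM with Risedronate. It was higher with Lurasidone (1.03 ± 0.17, adjusted p = 0.00736) and with Asenapine (1.02 ± 0.18, adjusted p = 0.00236), while the Olanzapine libraries reached into the range of Alendronate. Without Lurasidone replicate 1 the value with Lurasidone was 0.52 (adjusted p = 0.257). Bak1, which opens the mitochondrial membrane in apoptosis, was at 21.7 and 32.9 CPM with Asenapine, 61.5 and 45.6 CPM with Lurasidone and 28.2 and 26.4 CPM with Olanzapine, against 22.6 and 19.996 CPM with Alendronate and 20.97 and 22.2 CPM with Risedronate. The Lurasidone libraries were the highest of the 10 (1.33 ± 0.24, adjusted p = 0.0102), and Bak1 differed among the antipsychotics (adjusted p = 0.045).

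Nnat, neuronatin, an imprinted gene, was at 11.9 and 6.10 CPM with Asenapine, 25.01 and 41.2 CPM with Lurasidone and 9.40 and 7.92 CPM with Olanzapine, against 15.0 and 9.998 CPM with Alendronate and 11.1 and 8.18 CPM with Risedronate. Lurasidone was again highest, a rise of 1.57 ± 0.34 (adjusted p = 0.0303), and it exceeded Olanzapine by 1.93 (95% interval 0.99 to 2.86). Adrbk1, a kinase of activated G-protein receptors, rose by 1.19 ± 0.21. Atp2a2, the calcium pump of slow fibres, rose by 1.14 ± 0.27 (adjusted p = 0.0488), and Nfil3, a repressor in the clock, by 1.06 ± 0.25 (adjusted p = 0.0469). Both these calls were kept in only 6 of 15 alternatives, and lost with the offset and against either bisphosphonate alone. Atp2a2 was the only 1 of 13 tested slow fibre genes called (7.69%, beside 0.739%). Their summed level was 1157 and 941 CPM with Lurasidone, against 388 to 1308 CPM with the bisphosphonates. Myoglobin (Mb, 0.71 ± 0.16) and creatine kinase (Ckm, 0.45 ± 0.09) also rose with Lurasidone, and both calls were lost with the offset.

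Malat1, a nuclear long noncoding RNA, was at 3513 and 3378 CPM with Asenapine, 4038 and 5357 CPM with Lurasidone and 9048 and 9466 CPM with Olanzapine, against 9164 and 7017 CPM with Alendronate and 8239.5 and 10499 CPM with Risedronate. It was lower with Lurasidone (-0.88 ± 0.12, adjusted p = 0.00206) and with Asenapine (-1.35 ± 0.13, adjusted p = 3.31e-06), and gave 0.09 ± 0.12 with Olanzapine (adjusted p = 0.903). Mylk4, of the myosin light chain kinase family, was at 436 and 611 CPM with Lurasidone, against 689.7 to 1355 CPM with the bisphosphonates (-0.96 ± 0.19, adjusted p = 0.0199). Without Lurasidone replicate 1 only 10 genes passed with Lurasidone, 5 of them among the 84 with the same sign, Nmrk2 included. Leaving out any 1 of the other 5 libraries gave 29 (Risedronate replicate 2) to 89 genes (Alendronate replicate 2).

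Olanzapine differed at 8 genes. Pdk4, Actc1 and Nmrk2 were among the 4 higher, and Des, Trim54, Cela1 and 2210010C04Rik were lower. Des encodes desmin, the intermediate filament that ties myofibrils together. It was at 984 and 1019 CPM with Asenapine, 1471 and 1071 CPM with Lurasidone and 585 and 564 CPM with Olanzapine, against 1223 and 1163 CPM with Alendronate and 1883 and 1799 CPM with Risedronate. The Olanzapine libraries were the lowest of the 10 (-1.37 ± 0.12, adjusted p = 3.88e-06), and this call held in all 16 alternatives run. Asenapine was also lower (-0.58 ± 0.11, adjusted p = 0.00449), but against Alendronate alone it was at -0.25 (adjusted p = 0.285), Alendronate being itself below Risedronate (-0.64 ± 0.12, adjusted p = 0.0223). Lurasidone was 1.16 above Olanzapine (95% interval 0.89 to 1.42).

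Trim54, a MuRF1 relative that binds microtubules of muscle, was at 133 and 154 CPM with Olanzapine and 230.0 to 290.2 CPM in the other 8 libraries (-0.81 ± 0.12, adjusted p = 0.00493). Pdk4, the kinase that shuts pyruvate out of the citric acid cycle, was at 43.4 and 69.5 CPM with Asenapine, 42.7 and 163 CPM with Lurasidone and 169 and 161 CPM with Olanzapine, against 30.1 and 15.7 CPM with Alendronate and 64.1 and 92.3 CPM with Risedronate. It passed with Olanzapine (1.94 ± 0.35, adjusted p = 0.029), although Lurasidone replicate 2 lay between the 2 Olanzapine libraries. Against Risedronate alone it was 1.06 (adjusted p = 0.44), and against Alendronate alone 2.83 (adjusted p = 0.00542). Actc1, the alpha-actin of heart and of regenerating muscle, was at 4386 and 1382 CPM with Olanzapine, against 661 to 1479 CPM with the bisphosphonates (1.54 ± 0.28, adjusted p = 0.029). Without Olanzapine replicate 1 its change was 0.47 (adjusted p = 0.806), and 2 genes in all were called with Olanzapine, Des among them. Without Olanzapine replicate 2 there were 12, and without 1 bisphosphonate library 4 (Risedronate replicate 1) to 15 (Alendronate replicate 1).

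Alendronate and Risedronate differed from each other at 17 genes (0.251%), 12 higher (0.177%) and 5 lower (0.0739%) with Alendronate, and this reaches into the contrasts above. Nmrk2, a kinase of muscle that makes a precursor of NAD from nicotinamide riboside, was at 243 and 273 CPM with Asenapine, 430.3 and 379 CPM with Lurasidone, 487 and 352 CPM with Olanzapine, 115 and 99.98 CPM with Alendronate and 425 and 436 CPM with Risedronate. Alendronate stood below all other drugs (-2.01 ± 0.17, adjusted p = 2.62e-06 against Risedronate). The calls with Lurasidone (0.92 ± 0.13) and Olanzapine (0.96 ± 0.13) stood against Alendronate, and against Risedronate alone they were -0.09 and -0.05. Gapdh, a glycolytic enzyme often used to normalise expression, was at 3476 and 3525 CPM with Alendronate, against 6037 and 4898 CPM with Risedronate (-0.66 ± 0.11, adjusted p = 0.00828). The 5 largest rises with Alendronate (Try4, Cel, Rnase1, Cpb1 and Ctrb1) were all genes of pancreatic digestive enzymes. Car3, a carbonic anhydrase of adipocytes and slow fibres, rose by 0.80 ± 0.13. It was the only call among 7 tested adipocyte markers (14.3%, beside 0.177% of all genes tested), whose median log2 fold change was -0.136. None of 13 tested slow fibre genes was called between Alendronate and Risedronate. With all 36 muscle libraries in 1 fit the call for Car3 was lost.

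Clozapine and Aripiprazole, further antipsychotics of the series, stand in another library set beside CMCTween, a control group. Against CMCTween, Clozapine differed at 101 of 8208 genes (1.23%) and Aripiprazole at 13 (0.158%), with 2 libraries each. Cdkn1a was at 86.8 and 97.8 CPM with Clozapine and 71.4 and 53.7 CPM with Aripiprazole, against 30.4 and 42.3 CPM with CMCTween. It passed with Clozapine (1.31 ± 0.28, adjusted p = 0.0192) and not with Aripiprazole (0.74 ± 0.31, adjusted p = 0.542). Over 6 alternatives the log2 fold change of Cdkn1a with Clozapine ran from 1.11 to 1.57, and its call was kept in only 2. Txnip was at 586 and 493 CPM with Clozapine and 622 and 657 CPM with Aripiprazole, against 295 and 268 CPM with CMCTween, and rose with Clozapine (0.92 ± 0.16, adjusted p = 0.00368) and Aripiprazole (1.18 ± 0.16, adjusted p = 0.00134). Pygm also rose with both (0.62 ± 0.10 with Clozapine and 0.54 ± 0.10 with Aripiprazole), and Mt2 rose with Clozapine (1.48 ± 0.28, adjusted p = 0.00896). Of 6 alternatives, 3 kept the call for Txnip and 4 that for Mt2 with Clozapine. With Aripiprazole 5 kept the call for Txnip and 2 that for Pygm. Foxo4 (0.06 ± 0.18, adjusted p = 0.934) did not pass with Clozapine. Of the glucocorticoid-response list 3 of 19 genes rose with Clozapine (Mt1, Mt2 and Cdkn1a; 15.8%, beside 0.646% of all genes tested) and none with Aripiprazole. Without Clozapine replicate 4 Mt1 was at 0.74 (adjusted p = 0.363). Without CMCTween replicate 4 only 4 genes passed with Clozapine and none with Aripiprazole, and without Clozapine replicate 3 only 6 passed with Clozapine.

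Heart muscle of mice given the same 5 drugs was put through the same fits. There 14 of 6118 genes (0.229%) differed between the classes, 11 higher (0.18%) and 3 lower (0.049%). Cdkn1a (1.22 ± 0.19), Mt2 (1.36 ± 0.27) and Txnip (1.27 ± 0.23) were among the higher and Des (-0.73 ± 0.13) among the lower. Cdkn1a in heart was at 220.2 and 173 CPM with Asenapine, 121 and 240.0 CPM with Lurasidone and 203 and 166 CPM with Olanzapine, against 54.4 and 72.2 CPM with Alendronate and 103 and 86.0 CPM with Risedronate. Its classes did not overlap in heart either, and Foxo4 did not pass there (0.18 ± 0.25, adjusted p = 0.868). By drug, 210 heart genes (3.06%) were called with Asenapine, 36 (0.524%) with Lurasidone and 90 (1.31%) with Olanzapine. Of 19 glucocorticoid-response genes, 11 rose in heart with Asenapine, beside 1.81% of all genes higher there, and the acinar list had 0 of 8 called there.

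The difference of the class contrast between muscle and heart was tested directly. At an adjusted p under 0.05 edgeR called 0 of 7283 genes, and 302 genes had an unadjusted p under 0.05 (4.15%). For Foxo4 the class difference was larger in muscle by 0.97 ± 0.29 (unadjusted p = 0.00268, adjusted p = 1). The labels do not say whether heart and muscle came from the same mice, so the tissues may not be independent samples.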

How the data were processed

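The deposited values are raw gene counts, with 24421 gene symbols in each tissue table; the muscle and heart tables were used and the other 22 were not. The authors used bcl2fastq 2.17, TopHat2 2.1.1, HTSeq 0.9.1 and mm10, per the submitters' processing notes. The annotation, strand setting and filters are not given in the sources used here, so overlapping genes and near-identical copies (metallothioneins, trypsins) may share reads.

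Counts were tested in R 4.3.3 with edgeR 4.0.16: filterByExpr with a minimum count of 10, TMM scaling, the quasi-likelihood F test and Benjamini-Hochberg adjustment over all genes tested (threshold 0.05). All adjusted p-values are from these fits unless another tool is named, and some genes are not reported here. The class contrast used 2 groups (8 residual degrees of freedom) and the drug contrasts 5 groups (5). Values after ± are standard errors of log2 fold changes (log2 fold change over the square root of F), except where SD is written; pair tests were adjusted over 3 pairs. Clozapine and Aripiprazole were fitted with the 18 libraries of their set, and muscle against heart in 1 fit of 20 libraries. That set also holds CMCTween, Cisplatin, Dox, EMPA, Lenalidomide, Repatha and Teriparatide. The full labels of Dox and EMPA are Dox2mgmL and EMPAOral2wks. GC content and length are of GENCODE M21 transcripts. DESeq2 1.42.0, other scalings, filters and references, and left-out libraries were alternatives. The code was tested on simulated data. Replicate libraries differed by more than counting error (chi-square per degree of freedom 1.57 to 2.5).

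The libraries compared and the gene lists were chosen with earlier results of these data known. Genes named outside the lists are among the 10 largest changes per drug and direction with a mean of at least 5 CPM (the 20 largest for the class, the 5 largest between Alendronate and Risedronate); not each gene that this rule gives is named, and some genes are not reported here.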

Additional observations from a re-analysis of the deposited data

Results flagged for a closer look

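In 83 items (named genes and the acinar pancreas sum) the classes of 6 and 4 libraries were searched for a library far from the rest, and 6 of 166 groups held one (3.61%). The cut-offs flag about 1 in 20 groups when all libraries of a group come from 1 normal distribution. The groups here pool drugs that differ, so that rate may not hold for them. Asenapine replicate 4 was the highest antipsychotic library for 4 genes: Trim63 at 1253 CPM (next highest 631 CPM), Hk2 at 947 CPM (519 CPM), Chac1 at 97.5 CPM (55.4 CPM) and Nr4a3 at 90.2 CPM (31.7 CPM). Olanzapine replicate 1 was the highest for Actc1, at 4386 CPM (next highest 1382 CPM). Alendronate replicate 2 was the lowest bisphosphonate library for Bhlhe41, a repressor in the clock, at 70.0 CPM (next lowest 108 CPM). No cause of these values was tested.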

How the results depend on the processing

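Counts of genes past an adjusted p of 0.05 moved with the choices as follows, and the cause was not tested. For the class difference (3 genes), DESeq2 called 32 of the 810 genes it gave an adjusted p, sharing 1 with edgeR. No filter on low counts gave 80, a contrast of means over 5 drug groups 101 and all 36 libraries in 1 fit 149. Leaving out Asenapine, Lurasidone or Alendronate gave 0 each, and leaving out Olanzapine 213. For Asenapine (412 genes), DESeq2 gave 180, Alendronate alone as reference 264, Risedronate alone 226 and the offset on GC content and length 177. For Lurasidone (84 genes), DESeq2 gave 55, no filter 196, 36 libraries 158, Risedronate alone 31 and the offset 31. For Olanzapine (8 genes), DESeq2 gave 3, no filter 52, Alendronate alone 24 and Risedronate alone 2. Among the antipsychotics (234 genes), no filter gave 451 and the offset 118. Between Alendronate and Risedronate (17 genes), no filter gave 86 and 36 libraries 2. Aripiprazole against CMCTween (13 genes) gave 27 with 36 libraries.

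Leaving out 1 library at a time gave 0 to 14 genes for the class, 80 to 351 for Asenapine, 10 to 89 for Lurasidone, 2 to 15 for Olanzapine, 94 to 260 among the antipsychotics, 8 to 39 between Alendronate and Risedronate, 4 to 85 for Clozapine, 0 to 2 for Aripiprazole and 0 for muscle against heart.

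Deviations of samples with the same replicate number had correlations from -0.081 to 0.076. These values do not show what such samples have in common. Asenapine carries other numbers and was not examined. With the replicate number as a block over the other 4 drugs, the class contrast of means gave 15 genes against 22 unblocked, Lurasidone 48 against 74 and Olanzapine 5 against 10.

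Direction reversed in 3 of 1471 alternatives for 109 named gene results: Cela1 with Asenapine at -0.20 against Alendronate alone, and Nmrk2 at -0.087 with Lurasidone and -0.047 with Olanzapine against Risedronate alone. Of the rest, 1084 kept their side of the threshold, 383 lost the call and 1 gained it. The offset and the omission of Rn45s were chosen after seeing the data; without Rn45s the counts were 3 for the class, 415 for Asenapine, 83 for Lurasidone and 8 for Olanzapine. With 2 libraries a drug and under 1e+06 counts in each of the 10 libraries, genes below the filter were not tested.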
